A study of Mus musculus with 54 samples.

Results

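Gene expression was compared between N4bp1 knockout (KO) macrophages exposed for 4 h to R837 (3 libraries) and N4bp1 KO macrophages exposed for 4 h to Pam3 (3 libraries), which are 6 of the 54 RNA-seq libraries of the series. The 6 libraries were chosen by their titles, which give genotype, ligand and time. The cells were bone marrow-derived macrophages (BMDMs), grown from mouse marrow for 5 days in the growth factor M-CSF and, after replating, for 2 more days. Both groups therefore share the KO genotype and the culture protocol, and differ by their labels in the ligand. KO untreated cells, the same ligands on wild-type (WT) cells at 4 h, and the other KO time points served as references, with 3 libraries in each group. Per the labels, the replicates of a group were cultures from 3 individual mice. The protocol text names C57BL/6N wild-type mice for KO libraries too, and the sources used here do not give how N4bp1 was deleted, the ligand doses or which animals gave which culture.

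R837, also called imiquimod, triggers TLR7, an endosomal receptor for single-stranded RNA. Pam3 mimics bacterial lipoproteins and triggers the surface receptor TLR2 paired with TLR1. Both receptors signal through the adaptor MyD88 to NF-kB and MAP kinases, and the endosomal receptors are also known for inducing type I interferon, which acts back on the cell through its receptor to induce interferon-stimulated genes. N4BP1 dampens NF-kB signalling after several Toll-like receptors are engaged, and caspase-8 can cut it.

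N4bp1 itself (chr8:86808160-86885258, minus strand, GRCm38) was counted in every KO library. It stood at 185, 155 and 202 CPM under R837, against 143, 111 and 119.8 CPM under Pam3. CPM are counts relative to a library total scaled by TMM factors. All 3 R837 libraries lay above all 3 Pam3 libraries, and the log2 ratio of R837 over Pam3 was 0.54 ± 0.10 (SE, adjusted p = 7.81e-05, quasi-likelihood test of edgeR, Benjamini-Hochberg over all tested genes, as for every adjusted p below). WT libraries held 609.5, 579 and 568 CPM in WT cells under R837 and 231, 244 and 235 CPM in WT cells under Pam3, above every KO library of the same ligand. Reads were summed over the whole gene, so the counts do not show which part of it was deleted.

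The KO R837 libraries held 31.2 to 34.1 M counts and the KO Pam3 libraries 24 to 26.8 M, against 20.03 to 45.9 M over the series. The ranges do not overlap, so depth moves with the ligand here. After every library was thinned to the smallest total, 2355 of the 2612 genes called below were still called among 2535. Y-linked transcripts, summed, were at most 0.0339 CPM in the R837 libraries, against at most 0.199 CPM in the Pam3 libraries. Xist, the RNA that silences an X chromosome, ranged over 149 to 165 CPM under R837, against 75.1 to 148 CPM under Pam3. The Xist ranges do not overlap, although the fitted log2 ratio of 0.54 ± 0.71 did not pass (adjusted p = 0.68), and the part of this difference between the cultures in the results was not tested. Levels below come from bulk RNA, in which fewer cells of a type and less RNA per cell cannot be told apart.

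Of 14970 genes tested, 2612 (17.4%) differed between the ligands in KO cells at an adjusted p under 0.05. Under R837 1307 genes (8.73%) were higher and 1305 (8.72%) were lower. The groups of 3 libraries did not overlap for 5124 genes (34.2%), with R837 above Pam3 for 2401 (16%) and below it for 2723 (18.2%). The median log2 ratio was 0.63 among the genes called higher, -0.55 among those called lower and -0.03 over all genes tested. More large ratios pointed up than down, with 344 genes higher and 204 lower by over 2-fold, 100 and 48 by over 4-fold, and 29 and 22 by over 8-fold. The count was 1673 without KO R837 replicate 3 and 1704 without KO Pam3 replicate 1. Fitted on the 27 KO libraries alone it was 1724.

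Of the 15 largest increases under R837, 8 were on the list of interferon-stimulated genes described below. Naming these genes and the 15 largest decreases required groups of libraries that did not overlap. It also required a mean of at least 5 CPM in the higher group and a symbol that was not a placeholder. The 22 genes lower by over 8-fold are thus not among the 15 named decreases. Cxcl10, a chemokine that attracts T cells through the receptor CXCR3, stood at 2123, 1033 and 2875 CPM under R837, against 152, 118 and 116 CPM under Pam3. Its groups did not overlap, with KO R837 replicate 2 the lowest of its group, and the ratio was 15.6-fold (log2 3.97 ± 0.46, adjusted p = 3.49e-08). Rsad2 encodes viperin, an antiviral radical SAM enzyme, and lies at chr12:26442746-26456452, minus strand. It stood at 1683, 819 and 2229 CPM under R837, against 124, 106 and 126 CPM under Pam3. The groups were again apart, with a log2 ratio of 3.73 ± 0.41 (adjusted p = 7.39e-09). Cmpk2, a mitochondrial nucleotide kinase gene that lies next to Rsad2 on chromosome 12, stood at 715, 348 and 999 CPM under R837, against 67.9, 59.3 and 72.5 CPM under Pam3. Its log2 ratio was 3.37 ± 0.35 (adjusted p = 2.95e-09), and the same replicate was again the lowest of the R837 group.

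The IFIT genes encode antiviral proteins with tetratricopeptide repeats, several of which bind viral RNA. Ifit1 stood at 1518, 969.7 and 2050 CPM under R837, against 175, 136 and 150.1 CPM under Pam3. Ifit2 stood at 1195, 595 and 1659 CPM under R837, against 82.6, 81.5 and 99.8 CPM under Pam3. Ifit3 stood at 466, 277 and 677 CPM under R837, against 47.3, 39.2 and 38.5 CPM under Pam3. As the choice of the largest increases required, the lowest R837 library exceeded the highest Pam3 library for each. The log2 ratios were 3.30 ± 0.32 for Ifit1, 3.71 ± 0.39 for Ifit2 and 3.51 ± 0.32 for Ifit3 (adjusted p = 6.44e-10, 4.11e-09 and 2.04e-10). Ifit3b is a near copy of Ifit3, and how reads were split between them is uncertain. It stood at 78.0, 43.1 and 99.2 CPM under R837, against 6.31, 3.90 and 4.01 CPM under Pam3, a log2 ratio of 3.96 ± 0.37 (adjusted p = 2.29e-10). Against the 3 KO untreated libraries, at 4.51, 4.21 and 4.27 CPM, Ifit3b was higher under R837 (log2 4.08 ± 0.36), while under Pam3 its log2 ratio of 0.13 ± 0.37 did not pass (adjusted p = 0.805).

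Tnfsf10 encodes TRAIL, a death ligand of the TNF superfamily. It stood at 39.3, 21.6 and 45.6 CPM under R837, against 3.5, 3.35 and 4.04 CPM under Pam3. The groups were apart, as a place among the largest increases required, with a log2 ratio of 3.28 ± 0.44 (adjusted p = 3.82e-07). Lipg, which encodes endothelial lipase, stood at 96.0, 54.9 and 157 CPM under R837, against 10.5, 5.46 and 7.21 CPM under Pam3 and at 0 counts in 2 of the 3 KO untreated libraries. Its log2 ratio of R837 over Pam3 was 3.73 ± 0.45 (adjusted p = 6.89e-08). Iigp1, an immunity-related GTPase gene, had a log2 ratio of 3.49 ± 0.68 (adjusted p = 0.000231), and Oasl1, an oligoadenylate synthetase-like gene, one of 3.29 ± 0.40 (adjusted p = 7.32e-08). Ifi206 (log2 3.80 ± 0.45) and Ifi213 (log2 3.31 ± 0.43), of the PYHIN family on chromosome 1, and Tgtp2 (log2 3.25 ± 0.44), a GTPase gene on chromosome 11, have near copies, and their single values are uncertain. Olfr56 (log2 3.08 ± 0.38) shares exon bases with Ifi47, so reads of these genes cannot be told apart.

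**Figure D1:**
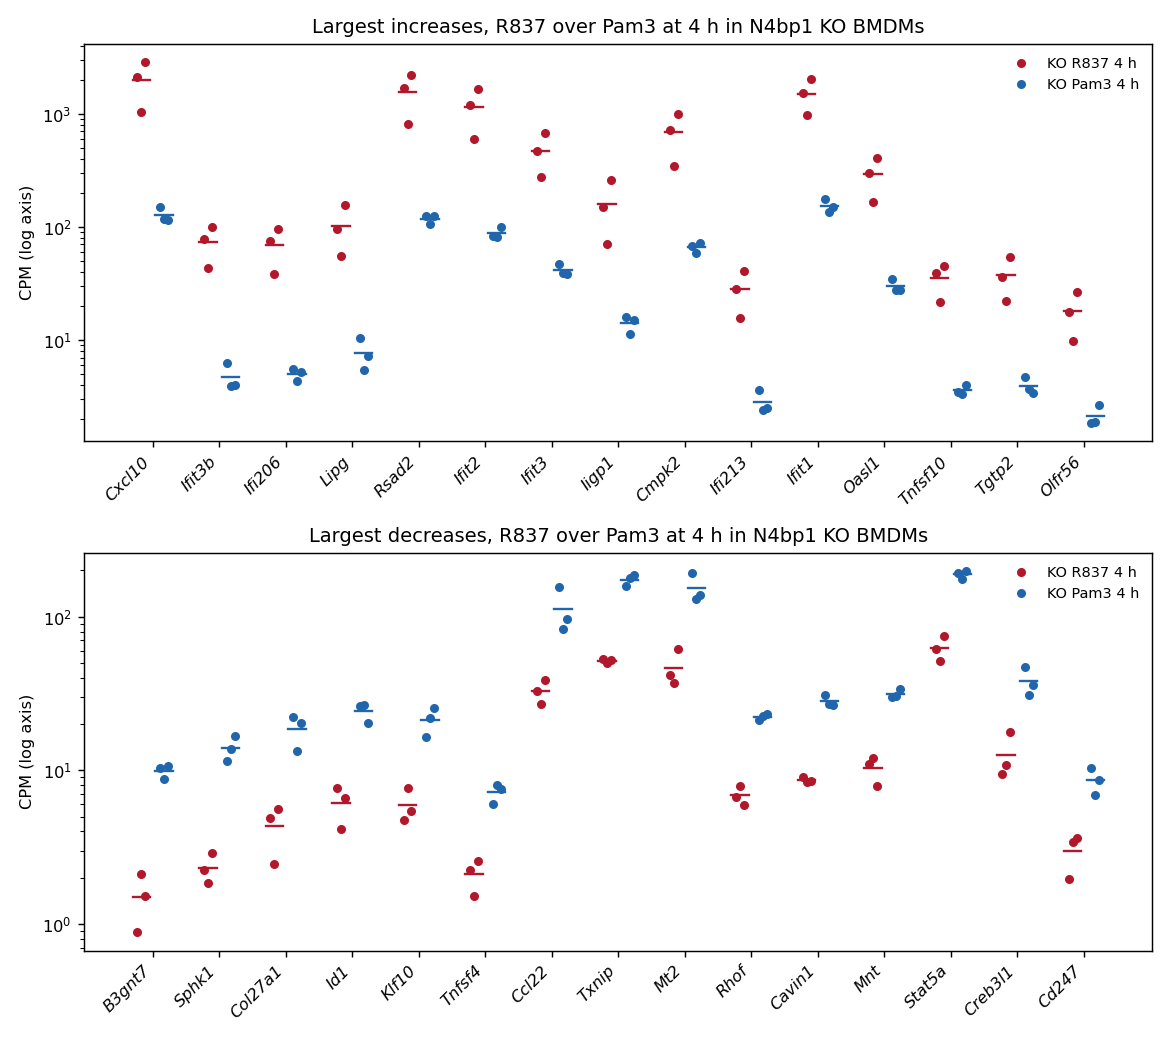
Levels of the 15 largest named increases and the 15 largest named decreases under R837, in CPM on a log axis. They were chosen among called genes with a mean of at least 5 CPM in the higher group and no placeholder symbol. Genes with larger decreases fell outside that choice. Points are the 3 KO R837 4 h libraries (left of each pair) and the 3 KO Pam3 4 h libraries, bars are means, and no gene has overlapping groups because the choice of genes required it.

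Interferon-stimulated genes moved as a group. Of a list of 40 such genes 39 were tested and 38 were higher under R837, against 8.73% of all genes tested. For all 38 every R837 library lay above every Pam3 library (16% of all genes tested). The median log2 ratio of the list was 1.90, against -0.03 over all genes tested. Isg15, a ubiquitin-like protein gene, stood at 565, 396 and 829 CPM under R837, against 159, 128 and 126 CPM under Pam3. That is a log2 ratio of 2.12 ± 0.22 (adjusted p = 1.91e-09). Ddx58, which encodes the RNA sensor RIG-I, had a log2 ratio of 2.35 ± 0.23 (adjusted p = 7.14e-10). The exception was Bst2, named here after its values were seen, with a log2 ratio of 0.09 ± 0.18 (adjusted p = 0.808). Without KO R837 replicate 3, 34 of the 39 passed and the median was 1.55. With KO R837 replicate 2 left out the count was 38 and the median was 2.15.

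The R837 libraries differed among themselves in these genes. The summed level of the 39 genes was 17307, 11247 and 23039 CPM in KO R837 replicates 1, 2 and 3, against 4763, 4093 and 4545 CPM in the KO Pam3 libraries and 1645, 1540 and 1458 CPM in the KO untreated libraries. Replicate 2 was the lowest R837 library for 39 of the 39 genes. It was the lowest for 953 of the 1307 genes higher under R837, and for 4977 of all 14970. At 2 h of R837 the KO library numbered 2 was the lowest for 37 of the 39 genes, and at 6 h for 26. At 8 h the libraries numbered 1 and 2 were each the lowest for 19. Against untreated KO cells 52.9% of all genes differed under R837 at 4 h and 52.5% under Pam3. Of the 39 genes 39 were higher under R837 (25.5% of all genes were), with a median log2 ratio of 3.67. Under Pam3 35 of the 39 were higher (26.6% of all genes), with a median of 1.36. These comparisons share their untreated libraries.

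**Figure D2:**
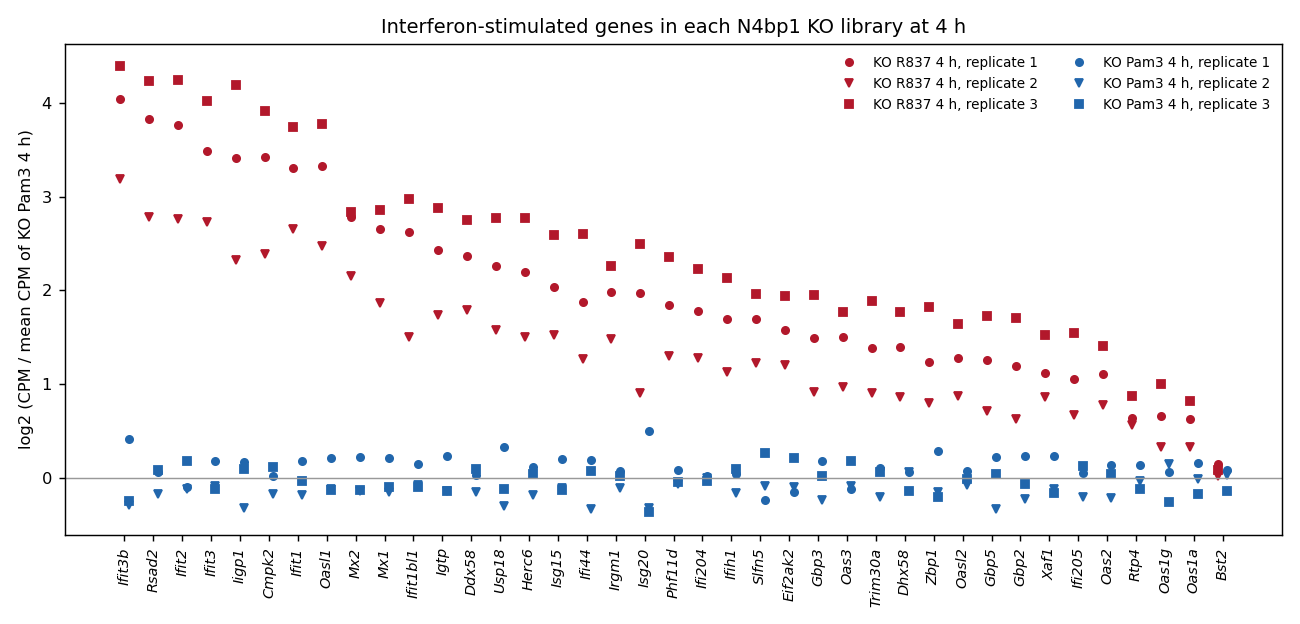
Level of each interferon-stimulated gene in each KO library at 4 h, as log2 of its CPM over the mean of the KO Pam3 libraries, with genes ordered from left to right by their ratio. Red symbols are the R837 libraries and blue symbols the Pam3 libraries, the shape gives the replicate number, and the red triangle (replicate 2) is the lowest R837 value for 39 of the 39 genes.

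The promoters of several of these genes hold the core letters of the interferon-stimulated response element (ISRE), a site bound by complexes that hold interferon regulatory factors (IRFs). The stretches below show them for genes with large ratios, from RefSeq for GRCm38.p6, read 5′ to 3′ along the gene's strand, with each match of GAAANNGAAA on either strand in capitals. They are chr12:26456453-26456592 on the minus strand for Rsad2, chr5:92348950-92349109 on the minus strand for Cxcl10, chr19:34640779-34640888 on the plus strand for Ifit1, chr19:34583359-34583429 on the plus strand for Ifit3, chr19:34607757-34607827 on the plus strand for Ifit3b and chr4:156200819-156200918 on the minus strand for Isg15.
Rsad2: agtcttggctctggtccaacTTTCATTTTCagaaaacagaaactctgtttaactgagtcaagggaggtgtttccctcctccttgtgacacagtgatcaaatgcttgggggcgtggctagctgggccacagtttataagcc
Cxcl10: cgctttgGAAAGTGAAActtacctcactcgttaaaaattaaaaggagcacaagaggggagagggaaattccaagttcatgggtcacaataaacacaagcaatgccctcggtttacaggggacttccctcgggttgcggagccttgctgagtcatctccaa
Ifit1: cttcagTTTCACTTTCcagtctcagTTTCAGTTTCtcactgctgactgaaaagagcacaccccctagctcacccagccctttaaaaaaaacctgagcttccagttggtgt
Ifit3: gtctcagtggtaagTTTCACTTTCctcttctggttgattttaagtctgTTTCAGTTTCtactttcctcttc
Ifit3b: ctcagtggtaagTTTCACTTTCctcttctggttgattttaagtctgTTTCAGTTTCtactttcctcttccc
Isg15: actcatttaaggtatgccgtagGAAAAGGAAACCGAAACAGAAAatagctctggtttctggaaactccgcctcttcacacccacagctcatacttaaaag
Ifit3 and Ifit3b carry the same pair of matches at the same spacing. The matches in Isg15 overlap one another, so its capitals run on.

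In windows from 250 bases before to 50 bases after the start (300 bases), the ISRE core stood in 100 of the 1026 promoters of genes higher under R837 that RefSeq gave (9.75%), in 25 of 1014 promoters of genes lower under R837 (2.47%) and in 417 of 10256 promoters of all tested genes (4.07%). Among the interferon-stimulated list it stood in 21 of 31 promoters (67.7%), among the 15 largest increases in 8 of the 13 with a promoter, and among the 15 largest decreases in 0 of 11. The GAS motif TTCNNNGAA, bound by STAT dimers, stood in 8.77% of promoters of higher genes, 8.58% of lower genes and 8.28% of all tested genes. For the kappaB consensus the shares were 7.6%, 6.02% and 6.38%, and for the AP-1 motif TGANTCA they were 7.31%, 6.02% and 6.62%. A match is a run of letters, not a measured binding site.

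Some transcripts of the interferon pathway itself were higher too, while the level of interferon-beta was low in both groups. Ifnb1, the interferon-beta gene, stood at 1.69, 0.757 and 1.98 CPM under R837, against 0.163, 0.358 and 0.109 CPM under Pam3. All R837 libraries were above all Pam3 libraries (log2 2.80 ± 0.75, adjusted p = 0.00629), and the highest level was under 2 CPM. Stat2, a transcription factor gene of the interferon response, stood at 583, 395 and 663 CPM under R837, against 169, 152 and 185 CPM under Pam3. Its groups were apart, with a log2 ratio of 1.70 ± 0.19 (adjusted p = 4.67e-09). Usp18, the protease that removes ISG15 and restrains the interferon receptor, had a log2 ratio of 2.28 ± 0.29 (adjusted p = 2.00e-07). Of 18 tested genes of interferon signalling 5 were higher and 2 lower, with a median of 0.26. That is 27.8% higher and 11.1% lower, against 8.73% and 8.72% of all genes tested.

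Among 9 tested interferon regulatory factors 4 were higher (44.4%, against 8.73% of all genes) and 1 was lower (11.1%, against 8.72%) under R837. Irf2 stood at 99.2, 64.2 and 121 CPM under R837, against 29.5, 23.1 and 27.6 CPM under Pam3. It was higher by a log2 ratio of 1.82 ± 0.17 (adjusted p = 1.68e-10), and against untreated cells it was lower under Pam3 (log2 -1.72 ± 0.17) but did not pass under R837 (log2 0.10 ± 0.16, adjusted p = 0.638). Irf7, which drives interferon-alpha genes, stood at 621, 475 and 724 CPM under R837, against 309.7, 313 and 303 CPM under Pam3, a log2 ratio of 0.98 ± 0.30 (adjusted p = 0.0183). Its call was lost without KO R837 replicate 3 (adjusted p = 0.103), KO Pam3 replicate 1 (0.0622) or KO Pam3 replicate 2 (0.0509). Irf8, a factor of macrophage and dendritic cell development, stood at 90.4, 83.4 and 99.5 CPM under R837, against 174, 126 and 136 CPM under Pam3. It was lower under R837 (log2 -0.68 ± 0.18, adjusted p = 0.00642), a call lost without KO Pam3 replicate 1 (adjusted p = 0.0779). Irf1 stood at 459, 446 and 368 CPM under R837, against 273, 303 and 284 CPM under Pam3, and although its groups did not overlap its log2 ratio of 0.57 ± 0.23 did not pass (adjusted p = 0.0803). The list's count of 5 was 2 without KO R837 replicate 3 or KO Pam3 replicate 1, and 3 without KO Pam3 replicate 2.

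Several Toll-like receptor transcripts differed between the ligands, the receptors of both ligands included. Of 27 tested receptors and adaptors 11 were higher (40.7%, against 8.73% of all genes) and 2 lower (7.41%, against 8.72%) under R837, with a median log2 ratio of 0.24. Tlr7, the R837 receptor on the X chromosome, stood at 269, 219.9 and 326 CPM under R837, against 168, 168 and 209.7 CPM under Pam3. Its groups were apart (log2 0.58 ± 0.16, adjusted p = 0.00703), and the call was lost without KO R837 replicate 3 (adjusted p = 0.101) or KO Pam3 replicate 1 (0.0502). Tlr2, the Pam3 receptor, stood at 2715, 2517 and 2963 CPM under R837, against 2091, 1924 and 1950 CPM under Pam3 (log2 0.46 ± 0.12, adjusted p = 0.00381). In the authors' RPKM, which allow for gene length, Tlr2 averaged 778 ± 19.1 RPKM under R837 and 617 ± 20.8 RPKM under Pam3 and Tlr7 58.6 ± 8.14 RPKM under R837 and 42.9 ± 5.61 RPKM under Pam3 (SD, n = 3 each). Tlr1, the partner of TLR2 for Pam3, had overlapping groups and a log2 ratio of 0.17 ± 0.14 (adjusted p = 0.448). The same held for Unc93b1, which carries endosomal receptors to their compartment, at 0.17 ± 0.09 (adjusted p = 0.196).

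Tlr3, a receptor for double-stranded RNA, stood at 83.8, 45.2 and 101 CPM under R837, against 14.7, 13 and 16.8 CPM under Pam3. This was the largest called ratio of the list, at 2.37 ± 0.26 (adjusted p = 7.70e-09), and under Pam3 the ratio to untreated cells did not pass (log2 0.04 ± 0.26, adjusted p = 0.925). Tlr4, the endotoxin receptor, stood at 85.1, 68.8 and 88.3 CPM under R837, against 33.9, 30.9 and 40.1 CPM under Pam3, with untreated libraries at 239.9, 233 and 266 CPM. It was lower than in untreated cells under both ligands (log2 -1.61 ± 0.13 under R837 and -2.81 ± 0.14 under Pam3) and higher under R837 than under Pam3 (log2 1.21 ± 0.13, adjusted p = 2.13e-09). The adaptor gene Myd88 stood at 408, 327 and 449.8 CPM under R837, against 268, 238 and 246 CPM under Pam3 (log2 0.66 ± 0.09, adjusted p = 2.58e-07). The kinase gene Irak2 was higher as well (log2 0.61 ± 0.11, adjusted p = 5.30e-05). Ticam1, which encodes TRIF, the adaptor of TLR3 and TLR4, moved the other way at 51.4, 55.2 and 65.1 CPM under R837, against 86.5, 72.9 and 83.8 CPM under Pam3 (log2 -0.50 ± 0.11, adjusted p = 0.000833).

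Of 12 tested CXC chemokines 3 were higher (25%, against 8.73% of all genes) and 1 was lower (8.33%, against 8.72%) under R837. The 3 were the interferon-induced ligands of CXCR3, Cxcl9, Cxcl10 and Cxcl11. Cxcl11 stood at 7.85, 2.88 and 10.1 CPM under R837, against 1.06, 0.757 and 1.17 CPM under Pam3 (log2 2.79 ± 0.52, adjusted p = 0.000118). Cxcl9 stood at 15.7, 9.75 and 35.9 CPM under R837, against 7.04, 2.11 and 2.77 CPM under Pam3. Its groups were apart (log2 2.37 ± 0.65, adjusted p = 0.00820), with the call lost without KO R837 replicate 3 (adjusted p = 0.110) or KO Pam3 replicate 2 (0.0603). Cxcl3, a neutrophil attractant acting on CXCR2, was the CXC chemokine that was lower, at 360.1, 332 and 335 CPM under R837, against 773, 545 and 557 CPM under Pam3 (log2 -0.87 ± 0.18, adjusted p = 0.000338). Cxcl2, of the same family, stood at 2528, 2522 and 2267 CPM under R837, against 1805, 1574 and 1459 CPM under Pam3. Its groups did not overlap either, in the opposite direction, but the log2 ratio of 0.60 ± 0.22 did not pass (adjusted p = 0.0561).

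Of 12 CC chemokines 6 were higher (50%, against 8.73% of all genes) and 4 lower (33.3%, against 8.72%) under R837. Ccl12, a monocyte attractant acting on CCR2, stood at 51.9, 34.3 and 69.4 CPM under R837, against 17, 14.2 and 10.5 CPM under Pam3. Its log2 ratio was 1.90 ± 0.24 (adjusted p = 9.76e-08). Ccl7, which also acts on CCR2, stood at 388, 334 and 468 CPM under R837, against 143, 207 and 155 CPM under Pam3 (log2 1.23 ± 0.24, adjusted p = 0.000208), and Ccl4 at 4356, 3756 and 5194 CPM under R837, against 3183, 2397 and 2267 CPM under Pam3 (log2 0.76 ± 0.14, adjusted p = 7.25e-05). Ccl22, a ligand of CCR4 on regulatory T cells and other T cells, was among the largest named decreases. It stood at 32.8, 27.1 and 38.9 CPM under R837, against 155, 83.6 and 96.4 CPM under Pam3. Its groups were apart, as a place among the largest decreases required, with a log2 ratio of -1.76 ± 0.33 (adjusted p = 0.000133). Ccl24, an eosinophil attractant, was low in every library, at 0.169, 0.484 and 0.231 CPM under R837, against 3.74, 1.55 and 2.69 CPM under Pam3 (log2 -3.14 ± 0.63, adjusted p = 0.000248). Ccl3 and Ccl5 had overlapping groups and log2 ratios of 0.34 ± 0.12 and 0.66 ± 0.22 (adjusted p = 0.0474 and 0.0324). Neither passed without KO R837 replicate 1 or 3, or KO Pam3 replicate 2 or 3, with adjusted p between 0.0552 and 0.256.

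Of 22 cytokine genes 5 were higher (22.7%, against 8.73% of all genes) and 2 lower (9.09%, against 8.72%), with a median log2 ratio of 0.34. Among them was Il12b, which encodes the p40 subunit shared by IL-12 and IL-23 (chr11:44400063-44414033, plus strand). It stood at 702, 542 and 815 CPM under R837, against 148, 73.6 and 105 CPM under Pam3 and at 0.445, 0.547 and 0.414 CPM in untreated cells. The groups were apart, with a log2 ratio of 2.66 ± 0.39, or 6.31-fold (adjusted p = 2.74e-06). Il6 stood at 222, 163 and 259 CPM under R837, against 187, 125 and 133 CPM under Pam3, so its groups overlapped and its log2 ratio of 0.53 ± 0.28 did not pass (adjusted p = 0.195). Il27, which encodes the p28 subunit of IL-27, also overlapped (log2 0.88 ± 0.34, adjusted p = 0.0660). Il10, the anti-inflammatory cytokine, was apart at 124, 109.5 and 176 CPM under R837, against 80.8, 76.1 and 85.1 CPM under Pam3 (log2 0.76 ± 0.18, adjusted p = 0.00172), and lost its call without KO R837 replicate 3 (adjusted p = 0.0561). Csf1, which encodes M-CSF, was higher under R837 (log2 0.76 ± 0.18, adjusted p = 0.00158), and Osm, the gp130 cytokine oncostatin M, was lower at 5.92, 5.75 and 7.63 CPM under R837, against 14.2, 14.5 and 12.3 CPM under Pam3 (log2 -1.09 ± 0.28, adjusted p = 0.00379).

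In the TNF superfamily 4 of 15 tested ligands were higher (26.7%, against 8.73% of all genes) and 1 was lower (6.67%, against 8.72%). Tnf stood at 3836, 4065 and 3246 CPM under R837, against 2475, 2226 and 2024 CPM under Pam3 and at 9.88, 11.8 and 8.75 CPM in untreated cells. It was apart between the ligands (log2 0.73 ± 0.21, adjusted p = 0.0130). Tnfsf9, the ligand of 4-1BB, stood at 268, 253 and 228 CPM under R837, against 109.9, 109.8 and 103 CPM under Pam3 (log2 1.22 ± 0.19, adjusted p = 4.63e-06). Tnfsf4, the OX40 ligand, was the one lower under R837, at 2.23, 1.51 and 2.58 CPM under R837, against 6.06, 7.96 and 7.61 CPM under Pam3. That gave a log2 ratio of -1.78 ± 0.44 (adjusted p = 0.00306).

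Feedback genes of NF-kB were induced strongly by both ligands and differed between them by less. Of 20 genes 5 were higher (25%, against 8.73% of all genes) and 2 lower (10%, against 8.72%) under R837, with a median log2 ratio of 0.16. Against untreated cells 19 of the 20 were higher under each ligand. Of all genes 25.5% were higher than in untreated cells under R837 and 26.6% under Pam3. Nfkbiz, which encodes the nuclear cofactor IkB-zeta needed for Il12b and Il6 transcription, stood at 2467, 2192 and 2500 CPM under R837, against 759, 736 and 786 CPM under Pam3. The libraries of each group lay close together and the log2 ratio was 1.65 ± 0.11 (adjusted p = 1.16e-14). Tnfaip3, which encodes the ubiquitin-editing inhibitor A20, stood at 2787, 2429 and 2928 CPM under R837, against 1609, 1398 and 1705 CPM under Pam3 (log2 0.79 ± 0.13, adjusted p = 1.04e-05). The subunit gene Rel stood at 489, 421 and 476 CPM under R837, against 249, 274 and 357 CPM under Pam3 (log2 0.65 ± 0.13, adjusted p = 0.000347). Among 18 IkB kinases and adaptors 7 were higher (38.9%) and 4 lower (22.2%). Rnf31, the catalytic subunit of the linear ubiquitin ligase, was higher (log2 0.82 ± 0.13, adjusted p = 1.13e-05), as were the adaptor Azi2 (log2 0.62 ± 0.11) and the kinase Tbk1 (log2 0.38 ± 0.08, adjusted p = 2.62e-05 and 0.000712). Map3k14, the kinase NIK of the non-canonical pathway, was lower at 5.08, 6.93 and 5.75 CPM under R837, against 11.9, 12 and 11.9 CPM under Pam3 (log2 -1.01 ± 0.14, adjusted p = 3.94e-07). Tbkbp1, an adaptor of TBK1, was lower too (log2 -0.83 ± 0.13, adjusted p = 9.23e-06). Ikbke had overlapping groups and a log2 ratio of 0.34 ± 0.11 (adjusted p = 0.0244), which did not pass without KO R837 replicate 3 (adjusted p = 0.294) or KO Pam3 replicate 2 (0.122).

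Among 33 genes of caspase-8 and cell death 14 were higher under R837 (42.4%, against 8.73% of all genes) and 3 were lower (9.09%, against 8.72%), with a median log2 ratio of 0.21. Casp8, whose product starts death-receptor apoptosis and cuts N4BP1, stood at 94.6, 79.7 and 119.6 CPM under R837, against 56.4, 48.0 and 49.8 CPM under Pam3. The groups were apart, with a log2 ratio of 0.93 ± 0.13 (adjusted p = 3.70e-07). Mlkl, the pore former of necroptosis, stood at 54.3, 42.1 and 63.3 CPM under R837, against 21.2, 26.6 and 23.6 CPM under Pam3 (log2 1.16 ± 0.15, adjusted p = 1.33e-07). Zbp1, a nucleic acid sensor that can engage RIPK3, stood at 201, 148 and 301 CPM under R837, against 105, 76.7 and 74.3 CPM under Pam3 (log2 1.35 ± 0.20, adjusted p = 2.14e-06). For all 3 genes every R837 library was above every Pam3 library, and Zbp1 is on the interferon-stimulated list too. Cflar, which encodes the caspase-8 regulator c-FLIP, was higher at 1450, 1212 and 1479 CPM under R837, against 742, 772 and 1041 CPM under Pam3 (log2 0.70 ± 0.13, adjusted p = 0.000129), as was the ubiquitin ligase gene Birc3 (log2 0.69 ± 0.10, adjusted p = 4.31e-07). Ripk1 (log2 0.18 ± 0.07, adjusted p = 0.0741) and Ripk3 (log2 -0.13 ± 0.13, adjusted p = 0.588) did not pass. Lower under R837 were Bcl2l1, the gene of the survival factor BCL-XL, at 68.3, 67.3 and 66.2 CPM under R837, against 143, 127 and 127 CPM under Pam3 (log2 -0.98 ± 0.14, adjusted p = 5.20e-07), and Fadd, the adaptor that binds caspase-8, at 10.5, 11.1 and 9.12 CPM under R837, against 19.3, 19.95 and 16.2 CPM under Pam3 (log2 -0.85 ± 0.15, adjusted p = 5.67e-05).

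Among 11 tested relatives of N4bp1 and CCCH zinc finger genes 5 were higher (45.5%, against 8.73% of all genes) and 2 lower (18.2%, against 8.72%). Zfp36, which encodes tristetraprolin, a factor that speeds decay of Tnf and other AU-rich mRNAs, stood at 2001, 1808 and 1908 CPM under R837, against 1198, 1096 and 1116 CPM under Pam3 (log2 0.75 ± 0.09, adjusted p = 1.25e-08). Its relative Zfp36l2 went the other way, at 7.11, 6.84 and 4.33 CPM under R837, against 11.8, 16.1 and 14.7 CPM under Pam3 and at 215, 164 and 225 CPM in untreated cells. It was far below untreated cells under both ligands and lower again under R837 (log2 -1.22 ± 0.22, adjusted p = 7.25e-05). Zc3h12d, of the regnase family, was lower as well (log2 -0.67 ± 0.13, adjusted p = 0.000128).

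The largest named decreases under R837 came from several kinds of genes. B3gnt7, a glycosyltransferase gene, stood at 0.880, 2.12 and 1.52 CPM under R837, against 10.4, 8.80 and 10.6 CPM under Pam3. Its log2 ratio of -2.71 ± 0.39 ranked first among the 15 named decreases (adjusted p = 8.23e-07), and R837 libraries lay near the untreated ones at 0.831, 0.847 and 0.896 CPM. Sphk1, which makes the lipid mediator sphingosine 1-phosphate, stood at 2.23, 1.85 and 2.91 CPM under R837, against 11.6, 13.7 and 16.7 CPM under Pam3. The log2 ratio was -2.59 ± 0.35 (adjusted p = 3.25e-07). Of 14 genes of sphingosine and purine signalling 2 were higher (14.3%, against 8.73% of all genes) and 4 lower (28.6%, against 8.72%), among them the receptor gene S1pr2 (log2 -0.62 ± 0.10, adjusted p = 9.97e-06) and the nucleotide receptor gene P2ry6 (log2 -0.49 ± 0.14, adjusted p = 0.00888).

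Txnip, which encodes a thioredoxin-binding protein that limits glucose uptake, had the smallest adjusted p of all genes. It stood at 52.7, 50.3 and 52.0 CPM under R837, against 159, 178 and 187 CPM under Pam3, and at 507, 481 and 488 CPM in untreated cells. The libraries of each group lay within a narrow range, and the log2 ratio was -1.76 ± 0.09 (adjusted p = 4.58e-19). Against untreated cells Txnip fell under both ligands, with log2 ratios of -3.25 ± 0.10 under R837 and -1.49 ± 0.09 under Pam3. Txnip overlaps the antisense gene Gm15441, and without a stated strand setting reads of the pair cannot be told apart.

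Klf10 and Id1, transcription regulators known as early targets of TGF-beta and BMP signalling, were also lower. Klf10 stood at 4.77, 7.72 and 5.45 CPM under R837, against 16.4, 21.9 and 25.3 CPM under Pam3 (log2 -1.82 ± 0.20, adjusted p = 4.82e-09). Id1 stood at 7.72, 4.15 and 6.61 CPM under R837, against 26.3, 26.7 and 20.5 CPM under Pam3 (log2 -1.99 ± 0.26, adjusted p = 1.69e-07). Relative to untreated cells, R837 and Pam3 moved Klf10 down (log2 -2.67 ± 0.20 and -0.85 ± 0.19) and Id1 up (log2 2.18 ± 0.30 and 4.17 ± 0.30). Mnt, a repressor that pairs with MAX, stood at 11, 12 and 7.86 CPM under R837, against 29.99, 30.3 and 33.9 CPM under Pam3 (log2 -1.61 ± 0.22, adjusted p = 2.76e-07). Stat5a, a target of cytokine receptors, stood at 61.5, 51.5 and 74.5 CPM under R837, against 193, 175 and 198 CPM under Pam3 (log2 -1.60 ± 0.22, adjusted p = 7.93e-07), with the limit that it overlaps Stat3 on the other strand. The metallothionein gene Mt2 stood at 41.8, 36.8 and 61.4 CPM under R837, against 192, 129.5 and 139 CPM under Pam3 (log2 -1.72 ± 0.37, adjusted p = 0.000881).

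Rhof, a small GTPase gene, stood at 6.74, 7.93 and 5.95 CPM under R837, against 21.3, 22.6 and 23.2 CPM under Pam3 (log2 -1.70 ± 0.18, adjusted p = 2.58e-09). Cavin1, needed for caveolae, stood at 9.11, 8.44 and 8.46 CPM under R837, against 30.8, 27 and 26.8 CPM under Pam3 (log2 -1.70 ± 0.27, adjusted p = 7.05e-06). For both the R837 libraries sat within a few CPM of the untreated ones. The remaining named decreases were Col27a1, Creb3l1 and Cd247. The collagen gene Col27a1 had a log2 ratio of -2.11 ± 0.36 (adjusted p = 2.29e-05). Creb3l1, which encodes a membrane-bound transcription factor, had one of -1.59 ± 0.33 (adjusted p = 0.000470). Cd247, which encodes the zeta chain of the T cell receptor complex and of some Fc receptors, had one of -1.53 ± 0.28 (adjusted p = 5.73e-05).

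Other gene lists are read against the 8.73% higher and 8.72% lower among all genes tested. Of 22 immediate-early and AP-1 genes 9 were higher (40.9%) and 1 was lower (4.55%), a count of 10 that was 6 without KO R837 replicate 3 or KO Pam3 replicate 1. The lower one was Jund, at 70.7, 52.8 and 36.0 CPM under R837, against 172, 151 and 128 CPM under Pam3 (log2 -1.50 ± 0.23, adjusted p = 3.66e-06), while Jun (log2 0.63 ± 0.14, adjusted p = 0.00110), Atf3 (log2 0.69 ± 0.13, adjusted p = 0.000105) and Klf4 (log2 1.10 ± 0.24, adjusted p = 0.000858) were higher. Of 11 dual-specificity phosphatases, which switch off MAP kinases, 3 were higher (27.3%) and 2 lower (18.2%), with Dusp1 higher (log2 0.85 ± 0.15, adjusted p = 2.44e-05) and Dusp3 lower (log2 -0.64 ± 0.08, adjusted p = 1.23e-07). Without KO R837 replicate 3 or KO Pam3 replicate 2 the list held 3 calls.

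Among 15 genes of nitric oxide, prostaglandin and itaconate metabolism 4 were higher (26.7%, against 8.73% of all genes), and 2 without KO R837 replicate 3 or KO Pam3 replicate 2. Acod1, which makes itaconate, stood at 4658, 3420 and 5971 CPM under R837, against 2040, 1573 and 1766 CPM under Pam3 (log2 1.38 ± 0.21, adjusted p = 5.43e-06). Ptges, which makes prostaglandin E2, was higher (log2 0.72 ± 0.13, adjusted p = 6.92e-05). Nos2, the inducible nitric oxide synthase gene, stood at 1032, 725 and 1374 CPM under R837, against 675, 573 and 709 CPM under Pam3, and with groups apart but scattered its log2 ratio of 0.68 ± 0.34 did not pass (adjusted p = 0.185). Of 18 MHC class I and immunoproteasome genes 7 were higher (38.9%) and none was lower. The peptide transporter gene Tap1 stood at 353, 219.8 and 437 CPM under R837, against 123, 106 and 114 CPM under Pam3 (log2 1.56 ± 0.21, adjusted p = 4.73e-07). The immunoproteasome subunit gene Psmb9 (log2 0.73 ± 0.15) and the nonclassical class I genes H2-T24 (log2 1.55 ± 0.23) and H2-T22 (log2 1.35 ± 0.17) were higher too, with adjusted p = 0.000223, 1.97e-06 and 1.13e-07. The last has near copies and an antisense neighbour, so its value is uncertain. Of 14 MHC class II and co-stimulation genes 2 were higher and 1 lower, a share called of 21.4% that is near the 17.4% of all genes. Cd274, which encodes PD-L1, was one of the 2 (log2 0.63 ± 0.16, adjusted p = 0.00489), and did not pass without KO R837 replicate 3 (adjusted p = 0.0698), and the other was Icosl (log2 0.38 ± 0.10, adjusted p = 0.00495), the ICOS ligand gene.

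Of 18 cholesterol synthesis genes 6 were higher (33.3%, against 8.73% of all genes), and 3 without KO R837 replicate 3. Hmgcs1, which encodes a synthase early in the pathway, stood at 701, 639 and 782 CPM under R837, against 426, 412 and 475 CPM under Pam3 (log2 0.69 ± 0.14, adjusted p = 0.000326). Of 14 NRF2 targets and regulators 5 were higher (35.7%). Nfe2l2, which encodes NRF2 itself, stood at 1154, 1067 and 1308 CPM under R837, against 698, 644 and 675 CPM under Pam3 (log2 0.81 ± 0.09, adjusted p = 2.82e-09). Keap1, which encodes its inhibitor, was higher as well (log2 0.51 ± 0.09, adjusted p = 4.22e-05), as was Gclm of glutathione synthesis (log2 0.63 ± 0.13, adjusted p = 0.000457). Of 22 homeostatic macrophage genes 3 were higher and 2 lower, a share called of 22.7% against 17.4% of all genes, with Cd33 (log2 0.83 ± 0.13), Maf (log2 0.75 ± 0.15) and Csf1r (log2 0.40 ± 0.09) higher (adjusted p = 4.57e-06, 0.000194 and 0.000812). Without KO R837 replicate 3, KO Pam3 replicate 2 or KO Pam3 replicate 3 that list held 3 higher and 0 lower.

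Further lists held few calls. Of 15 unfolded-protein and stress genes 1 was higher and 3 lower (20%, against 8.72% of all genes), among them Herpud1 (log2 -0.56 ± 0.11, adjusted p = 9.43e-05), a gene of degradation at the endoplasmic reticulum, and 1 was called without KO R837 replicate 1, KO R837 replicate 3 or KO Pam3 replicate 1. Of 11 nuclear receptor and glucocorticoid response genes 1 was higher and 3 lower (27.3%), with the clock gene Per1 at 9.27, 11 and 10.3 CPM under R837, against 18.6, 15.7 and 21.4 CPM under Pam3 (log2 -0.87 ± 0.20, adjusted p = 0.00136). That list held 1 call without KO R837 replicate 3 and 2 without KO Pam3 replicate 1. The shares in the next 3 lists were near those of all genes. Of 17 glycolysis genes 2 were lower (11.8%, against 8.72%), and 0 without KO R837 replicate 1 or replicate 2, and 1 without KO Pam3 replicate 1 or replicate 2. Of 13 complement and acute-phase genes 2 were higher (15.4%, against 8.73%), and 0 without KO R837 replicate 1, KO R837 replicate 3 or KO Pam3 replicate 2. Of 12 LXR targets 1 was higher (8.33%, against 8.73%), Mylip (log2 0.79 ± 0.16, adjusted p = 0.000260), which encodes the ligase that degrades the LDL receptor. No cell cycle gene of 20 passed with edgeR, DESeq2 or limma voom, and 1 had an unadjusted edgeR p under 0.05, while 2 passed with no filter or with only the libraries compared.

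**Figure D3:**
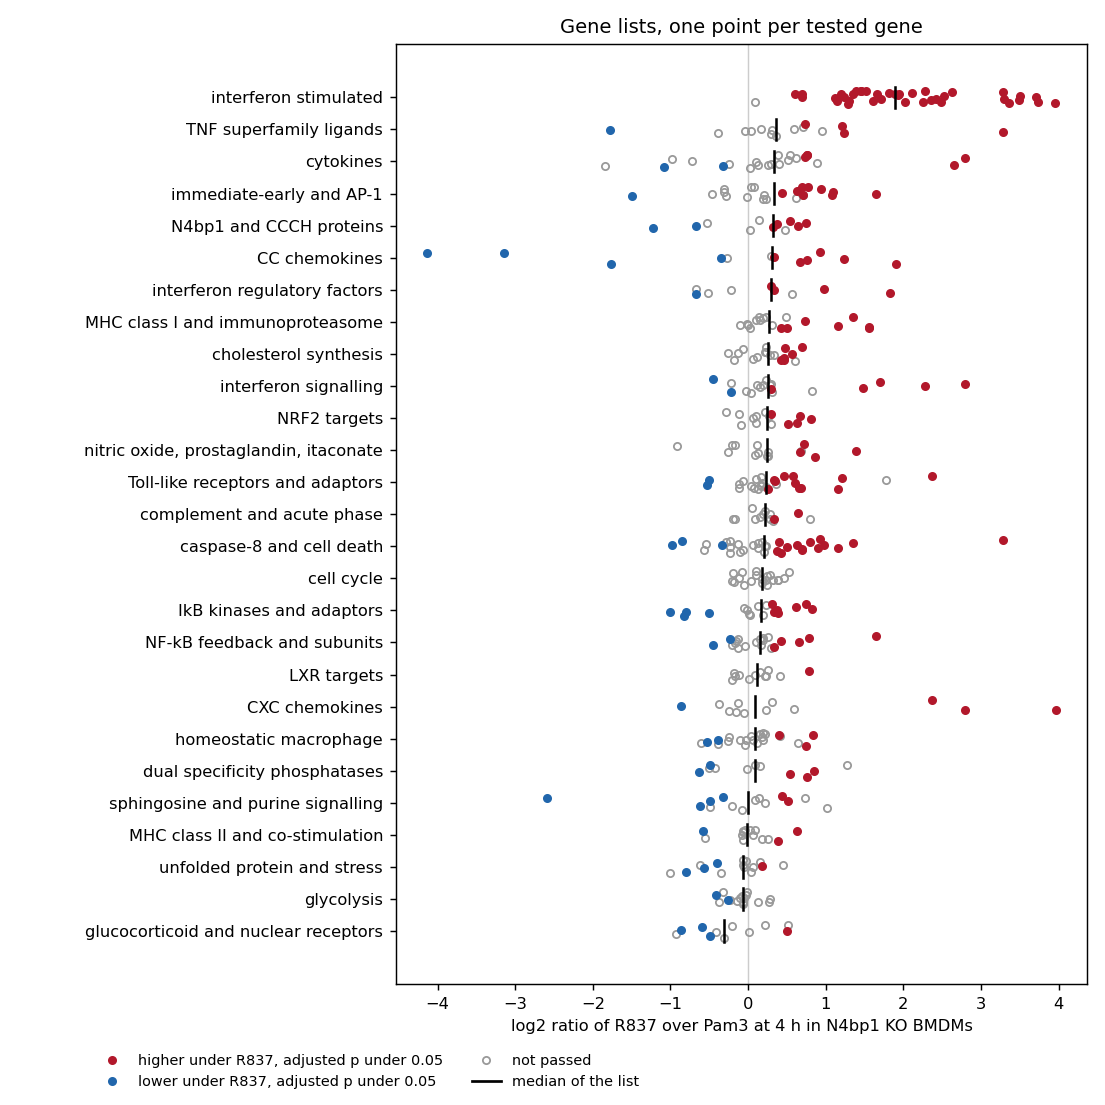
The log2 ratio of R837 over Pam3 at 4 h in N4bp1 KO cells for each tested gene of 27 lists, with 1 point per gene and a black bar at the median. Red points were higher and blue points lower at an adjusted p under 0.05, and the interferon-stimulated list has its median at 1.90 while the other medians lie between -0.32 and 0.36.

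Markers of the labelled cell type were high in both groups. The 10 macrophage markers summed to 26870 to 31557 CPM under R837, against 23934 to 28726 CPM under Pam3, and none was at 0. Of these, Fcgr1, the high-affinity Fc receptor gene and a known interferon target, stood at 417, 288 and 558 CPM under R837, against 148, 145 and 144 CPM under Pam3 (log2 1.53 ± 0.16, adjusted p = 2.34e-09). Csf1r is named above, and Cd14 was higher (log2 0.34 ± 0.10, adjusted p = 0.0106). Of the macrophage markers 30% were higher and 10% lower, against 8.73% and 8.72% of all genes. Without KO R837 replicate 3 or KO Pam3 replicate 2 Cd14 did not pass (adjusted p = 0.135 and 0.0666).

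Markers of each other cell type tested summed to at most 345 CPM in a library. The 6 osteoclast markers summed to 252 to 295 CPM under R837, against 301 to 345 CPM under Pam3, with Calcr at 0 under Pam3. These sums did not overlap, and the markers Acp5 (log2 -0.85 ± 0.23, adjusted p = 0.00706) and Ocstamp (log2 -1.73 ± 0.49, adjusted p = 0.00893) were lower under R837. Of the tested osteoclast markers 33.3% were lower, against 8.72% of all genes. Acp5 did not pass without KO R837 replicate 2 (0.0751) or KO Pam3 replicate 1 (0.0875), nor Ocstamp without KO R837 replicate 1 (0.0521). The 9 megakaryocyte and erythroid markers summed to 214 to 260 CPM under R837, against 212 to 293 CPM under Pam3, with Hba-a1 and Alas2 among those at 0 under R837. Of the tested members Pf4 averaged 287.5 RPKM under R837 and 346.8 RPKM under Pam3. The other tested members, Itga2b, Gp1ba, Gp9 and Alas2, each averaged at most 1.76 RPKM in either group. Monocyte sums were apart as well. The 6 monocyte markers summed to 205 to 209 CPM under R837, against 152 to 158 CPM under Pam3, and the 1 that passed was Ccr2, at 105, 99.8 and 101 CPM under R837, against 50.3, 53.5 and 63.4 CPM under Pam3 (log2 0.87 ± 0.21, adjusted p = 0.00204). Of the tested monocyte markers 16.7% were thus higher, against 8.73% of all genes. The 11 neutrophil markers summed to 137 to 180 CPM under R837, against 122 to 188 CPM under Pam3, with Ly6g at 0 in the R837 libraries. The 9 B and plasma cell markers summed to 89.7 to 143 CPM under R837, against 105 to 169 CPM under Pam3. For dendritic cells the 9 markers summed to 41.3 to 55.1 CPM under R837, against 46.0 to 66.7 CPM under Pam3. For T and NK cells the 8 markers summed to 31.6 to 51.3 CPM under R837, against 23.4 to 36.7 CPM under Pam3, with Gzma at 0 in both groups and Cd3g at 0 under Pam3. In that list Cd8a had a log2 ratio of 2.08 ± 0.65 (adjusted p = 0.0198), which did not pass without KO R837 replicate 3 (0.140) or KO Pam3 replicate 2 (0.108) or 3 (0.0600). Of its tested members 25% were higher, against 8.73% of all genes. The 10 stromal and endothelial markers summed to 56.4 to 68.6 CPM under R837, against 63.5 to 72.0 CPM under Pam3, with Lepr at 0 under Pam3. The 6 mast cell and basophil markers summed to 7.81 to 10.4 CPM under R837, against 7.96 to 11.2 CPM under Pam3. Among the stromal and endothelial markers Cdh5 had a log2 ratio of 1.4 ± 0.44 (adjusted p = 0.0218), which did not pass without KO R837 replicate 1 (0.283) or KO Pam3 replicate 1 (0.0974) or 2 (0.0635). The share higher in that list, 11.1%, was near the 8.73% of all genes. In the neutrophil, dendritic, B and plasma, mast, and megakaryocyte and erythroid lists no member passed with edgeR, while at most 1 member of each had an unadjusted p under 0.05. With DESeq2 1 dendritic marker passed, and with limma voom none of these did. The part of these cells in the results above was not tested.

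Levels at other times, given as a description with no test, place the 4 h libraries in a course. Cxcl10 averaged 524, 2010, 256 and 111 CPM at 2, 4, 6 and 8 h of R837, against 73.6, 129, 147 and 198 CPM at the same hours of Pam3. Rsad2 averaged 181, 1577, 428 and 215 CPM under R837, against 76.3, 119, 213 and 306 CPM under Pam3. For both genes the mean under R837 was highest at 4 h, and by 8 h it lay below the mean under Pam3. At 8 h Cxcl10 stood at 143, 93.3 and 97.4 CPM under R837, against 310, 150 and 134 CPM under Pam3. Rsad2 stood at 234, 196 and 215 CPM under R837, against 463, 211 and 244 CPM under Pam3. For both genes the groups overlapped and KO Pam3 replicate 1 was the highest. KO Pam3 8 h replicate 3 had counts for 12263 genes, against 16097 to 18039 in the other libraries of the series. The summed interferon-stimulated level ran to 10318, 10019 and 11328 CPM at 8 h of R837, against 9312, 5701 and 6625 CPM at 8 h of Pam3.

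Il12b followed another course, at 252, 686, 1086 and 947 CPM under R837, against 36.8, 109, 139 and 111 CPM under Pam3. Every R837 library was above every Pam3 library at each of the 4 times. Txnip averaged 88.0, 51.7, 93.9 and 152 CPM under R837, against 157, 175, 225 and 293 CPM under Pam3, below untreated cells throughout. Klf10 averaged 20.4, 5.98, 5.54 and 7.76 CPM under R837, against 86.7, 21.2, 20.7 and 34.1 CPM under Pam3, so the ligands were apart already at 2 h. Sphk1 was transient under both ligands, at 14.6, 2.33, 0.640 and 0.252 CPM under R837, against 17.5, 14, 2.05 and 0.167 CPM under Pam3, and its 2 h libraries overlapped between the ligands.

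**Figure D4:**
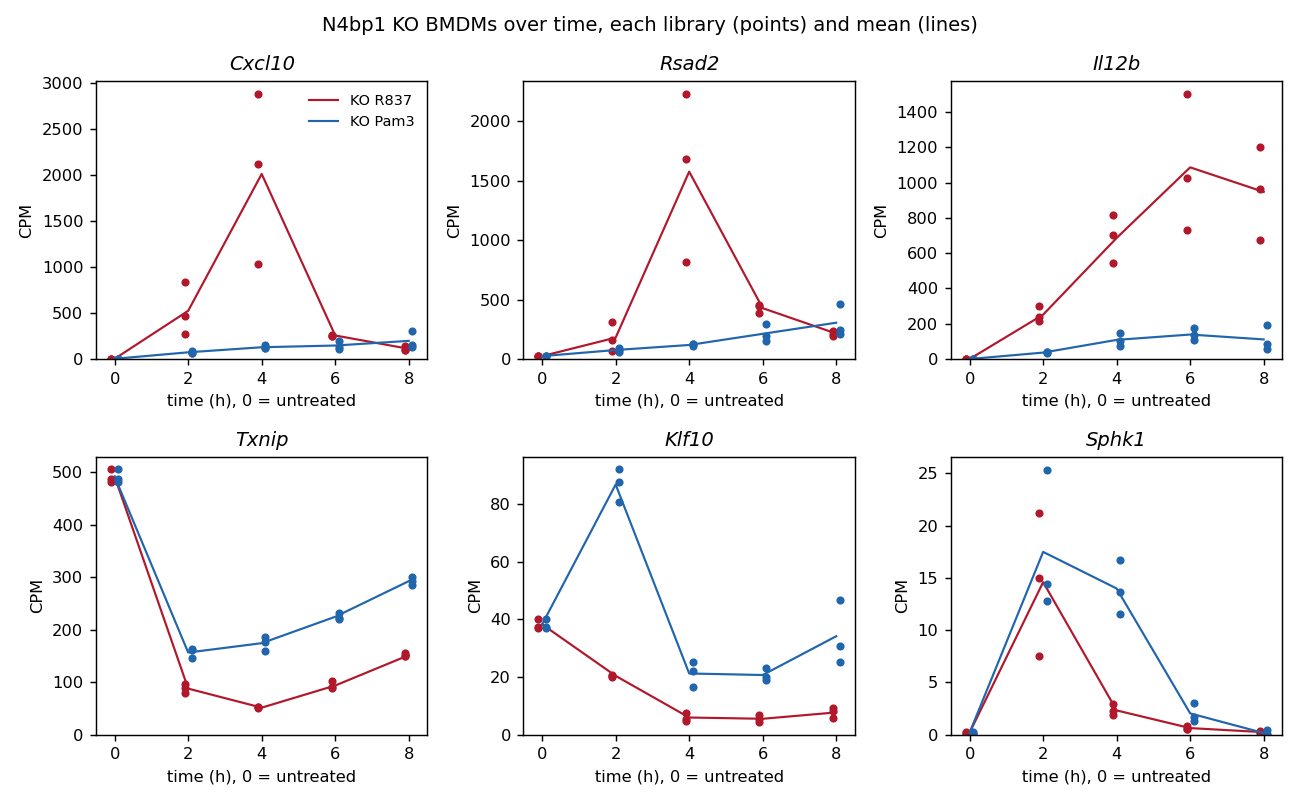
Levels of 6 genes in N4bp1 KO cells in CPM against hours of exposure, with untreated cells at 0. Points are libraries and lines join means of 3 libraries under R837 (red) and Pam3 (blue), and Cxcl10 and Rsad2 peak at 4 h of R837 while Il12b is highest at 6 h.

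The same ligand contrast in WT cells called 3275 genes (21.9%), 1558 higher (10.4%) and 1717 lower (11.5%) under R837. The KO and WT contrasts share no library. Of the genes higher in KO cells 908 were also higher in WT cells, which is 69.5% of the KO set and 58.3% of the WT set. Of the lower genes 868 were shared, 66.5% of the KO set and 50.6% of the WT set, and 3 genes were called in opposite directions. Across the 14970 genes the log2 ratios correlated with Pearson's r = 0.545 and Spearman's rho = 0.553, as a description over genes that are not independent. The interferon-stimulated list had a median ratio of 1.90 in KO cells and 2.80 in WT cells, where 39 of 39 genes were higher. The summed level of these genes was 17307, 11247 and 23039 CPM in KO cells under R837, against 40097, 40991 and 40725 CPM in WT cells under R837. Under Pam3 it was 4763, 4093 and 4545 CPM in KO cells, against 4785, 3481 and 4354 CPM in WT cells.

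A test of the difference between the genotypes' ligand ratios called 174 genes (1.16%). The ratio was lower in KO than in WT cells for 150 of them (1%) and higher for 24 (0.16%). Of the 150 genes 146 were higher under R837 in WT cells (10.4% of all genes were) and 105 in KO cells (8.73% of all genes). Choosing genes by a lower ratio in KO cells itself favours a high ratio in WT cells. The median difference was -0.90. The promoters of the 150 genes held the ISRE core in 23 of 114 cases (20.2%), against 4.07% of all tested genes and 9.75% of genes higher under R837 in KO cells. The count of 174 moved widely with single libraries, to 46 without KO R837 replicate 2, 310 without KO R837 replicate 3, 97 without KO R837 replicate 1 and 64 without KO Pam3 replicate 1. It was 103 and 93 without WT R837 replicates 1 and 2, and 61 and 115 without WT Pam3 replicates 2 and 3. Y-linked transcripts, summed, reached at most 0.199 CPM in the KO libraries at 4 h, against 0.0658 to 189 CPM in the WT libraries, and the immunoglobulin gene Igha ranged over 36.3 to 89.9 CPM in the KO group and 0.996 to 15.0 CPM in the WT group. The part of such differences between the cultures in the genotype comparison was not tested.

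Of the genes named, 10 were chosen for the smallest p-values of the genotype difference, so their passing in the main fit was fixed. They are Aldh1b1, Nub1, Ncoa7, Aim2, Gpsm2, Plekha2, Wars, Wdr43, Gna15 and Fez2. Genes whose difference was called under every alternative tried include the following. Aldh1b1, a mitochondrial aldehyde dehydrogenase gene, stood at 15.3, 12.2 and 16.8 CPM in KO cells under R837 and 12.6, 9.48 and 9.29 CPM in KO cells under Pam3, against 47.0, 53.4 and 49.9 CPM in WT cells under R837 and 6.61, 7.01 and 8.07 CPM in WT cells under Pam3. Its libraries overlapped between the ligands in KO cells but were far apart in WT cells, and the difference of the log2 ratios, KO minus WT, was -2.29 ± 0.26 (adjusted p = 2.44e-07). In KO cells alone its log2 ratio of 0.50 ± 0.18 (adjusted p = 0.0451) did not pass without KO R837 replicate 1 (0.10) or 3 (0.215) or KO Pam3 replicate 2 (0.149) or 3 (0.129). Tnfsf10 stood at 39.3, 21.6 and 45.6 CPM in KO cells under R837 and 3.5, 3.35 and 4.04 CPM in KO cells under Pam3, against 189, 222 and 211 CPM in WT cells under R837 and 2.40, 2.65 and 3.57 CPM in WT cells under Pam3. The difference was -2.88 ± 0.60 (adjusted p = 0.00830), with the KO libraries under R837 well below the WT ones and the Pam3 libraries close together. Ccl12 stood at 51.9, 34.3 and 69.4 CPM in KO cells under R837 and 17, 14.2 and 10.5 CPM in KO cells under Pam3, against 185, 183 and 208 CPM in WT cells under R837 and 13.9, 13.1 and 13.2 CPM in WT cells under Pam3 (difference -1.94 ± 0.33, adjusted p = 0.000832).

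Gpsm2, a regulator of spindle orientation, had a log2 ratio of 1.15 ± 0.19 in KO cells, against 2.83 ± 0.19 in WT cells (difference -1.69 ± 0.26, adjusted p = 0.000226). Aim2, the cytosolic DNA sensor gene, had 0.98 ± 0.15 in KO cells, against 2.31 ± 0.15 in WT cells (difference -1.33 ± 0.21, adjusted p = 0.000226). Ncoa7, a nuclear receptor coactivator gene, had 0.56 ± 0.14 in KO cells, against 1.90 ± 0.14 in WT cells (difference -1.34 ± 0.20, adjusted p = 0.000142), and its KO ratio did not pass without KO Pam3 replicate 1 (adjusted p = 0.0523). Gna15, a G protein subunit gene, stood at 15.7, 12 and 17 CPM in KO cells under R837 and 14.8, 13.9 and 14.9 CPM in KO cells under Pam3, against 36.0, 39.8 and 39.6 CPM in WT cells under R837 and 15.5, 15.2 and 14.3 CPM in WT cells under Pam3 (difference -1.33 ± 0.22, adjusted p = 0.000572). In KO cells Gna15 overlapped between the ligands, while in WT cells all R837 libraries were above all Pam3 libraries. The differences of Nub1 (-0.81), Plekha2 (-0.91), Wars (-0.77), Wdr43 (-0.78), Fez2 (-0.70), Keap1 (-0.76) and N4bp1 itself (-0.77) were smaller, with adjusted p from 0.000120 to 0.00146.

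For the interferon-stimulated genes with the largest ratios, the call of the difference depended on single libraries. The difference was -2.14 ± 0.52 for Rsad2, -2.17 ± 0.46 for Cmpk2, -1.83 ± 0.42 for Ifit3 and -1.39 ± 0.30 for Isg15 (adjusted p = 0.0288, 0.00866, 0.0163 and 0.00945). Cxcl10, with 3.97 ± 0.46 in KO cells and 5.75 ± 0.50 in WT cells, did not pass (difference -1.78 ± 0.59, adjusted p = 0.163). Of the 39 genes 14 passed (35.9%, against 1.16% of all genes), with a median difference of -1.02. Without KO R837 replicate 2, 1 passed (46 of all genes did), with a median of -0.79. The count was 26 without KO R837 replicate 3 (310 of all genes). It was 2 without KO Pam3 replicate 1 or WT Pam3 replicate 2 (64 and 61 of all genes). It was 6 to 8 without KO R837 replicate 1, WT Pam3 replicate 3 or any WT R837 library (93 to 150 of all genes). Outside that list Casp8, Mlkl, Il6, Ccl7 and Txnip had differences of -0.71, -1.0, -1.75, -1.54 and -0.56. Il6 stood at 222, 163 and 259 CPM in KO cells under R837 and 187, 125 and 133 CPM in KO cells under Pam3, against 65.8, 112 and 129.7 CPM in WT cells under R837 and 21.4, 20.3 and 21.3 CPM in WT cells under Pam3, so that every KO library held more than every WT library of the same ligand while the ligand ratio was larger in WT cells. Leaving out KO R837 replicate 2, none of Rsad2, Cmpk2, Ifit1, Ifit3, Ifit3b, Isg15, Casp8, Mlkl, Il6, Ccl7 and Txnip passed (adjusted p from 0.0536 to 0.201). Without WT Pam3 replicate 2 these 11 lost 9 calls, without KO Pam3 replicate 1 they lost 7, and without WT R837 replicate 2 they lost 5. They lost 4 calls each without KO R837 replicate 1, WT R837 replicate 1 or WT Pam3 replicate 3, 3 without WT R837 replicate 3 and 1 without KO Pam3 replicate 3, with adjusted p of at most 0.198 in these cases.

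**Figure D5:**
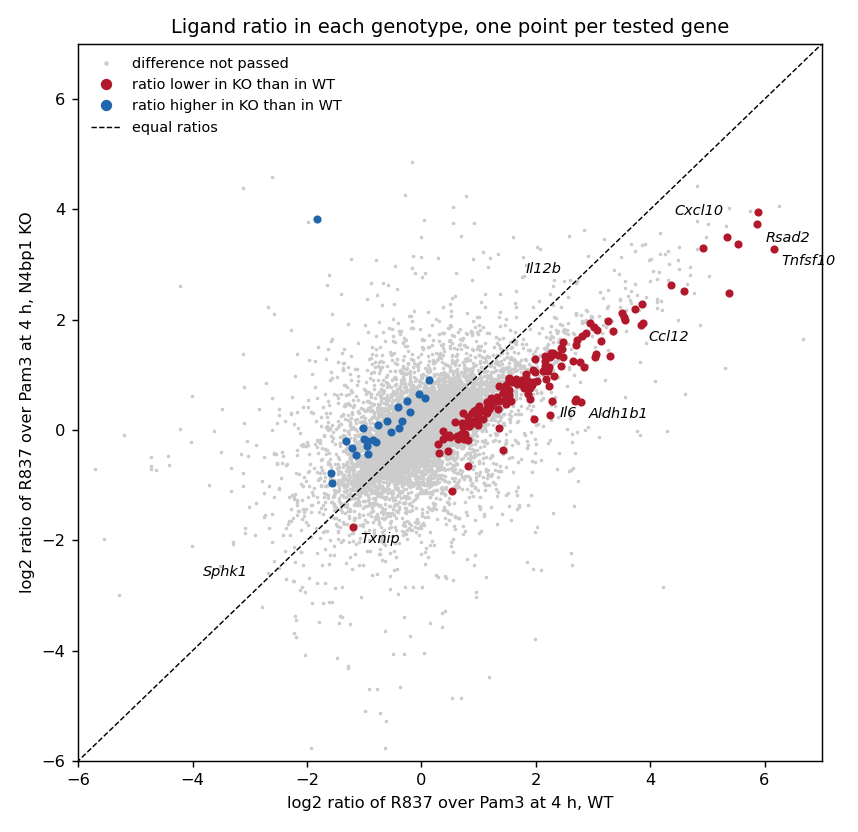
The log2 ratio of R837 over Pam3 at 4 h in N4bp1 KO cells (vertical) against WT cells (horizontal), with 1 point per tested gene, a dashed line of equal ratios and 4 genes outside the axes. Red points had a ratio lower in KO than in WT cells (150 genes) and lie below the line by that choice. Blue points had a higher one (24 genes). Most red points lie right of 0, which the choice favours.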

How the data were processed

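Per the labels' protocols, RNA was made into libraries with a TruSeq RNA v2 kit and sequenced on a HiSeq4000. The submitters' processing notes name GSNAP and GRCm38, while the sources used here give no versions, settings or strand setting. The authors deposited raw counts of reads in exons per gene and library for 52636 Ensembl identifiers. The deposited files also give RPKM, used here only for levels of different genes side by side. Symbols and 1-based locations came from GENCODE M21 (52403 identifiers matched), and promoters from RefSeq for GRCm38.p6 (27025 symbols).

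Counts of all 54 libraries, in 18 groups of 3 by genotype, ligand and time, were fitted in 1 model with edgeR 4.0.16 in R 4.3.3 (filterByExpr with a minimum count of 10 and total of 15, TMM, glmQLFit with robust set, glmQLFTest), with Benjamini-Hochberg adjustment over 14970 genes at 0.05. Genes under the filter were not tested. SE is the size of a log2 ratio over the square root of F. The script was tested on simulated data. In the KO and WT groups at 4 h and the KO untreated group, libraries of a group differed by 10.5 to 53.3 times the sampling variance. This was over genes with at least 20 counts, so none of these libraries was a duplicate. The other groups were not checked in this way. Per the labels the replicates are individual mice. Alternatives were another scaling (RLE), no filter, a stricter filter (1 CPM in 3 libraries), DESeq2 1.42.0, limma 3.58.1 with voom, other sets of libraries, the replicate block, each library left out in turn, and thinning to 20033154 counts, the last chosen after the depths were seen.

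Named genes are N4bp1, the 15 largest increases and decreases that passed, reached 5 CPM and had groups apart (placeholder symbols skipped), the 10 smallest p-values of the genotype difference, a fixed set of innate immunity genes, and per list up to 4 members with the smallest p-values and 2 that moved against the list. Some genes that the rule names are not reported here. The members and lists were chosen with earlier results of these data known.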

Additional observations from a re-analysis of the deposited data

Results flagged for a closer look

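The ratio of R837 over Pam3 at 4 h differed between the genotypes for 25 of the genes named, by the test of the difference itself, and the values are KO minus WT on the log2 scale. It was -2.29 for Aldh1b1, -1.69 for Gpsm2, -1.34 for Ncoa7, -1.33 for Aim2 and -1.33 for Gna15. It was -0.91 for Plekha2, -0.81 for Nub1, -0.78 for Wdr43, -0.77 for Wars, -0.77 for N4bp1, -0.76 for Keap1 and -0.70 for Fez2. Among ligands of receptors it was -2.88 for Tnfsf10, -1.94 for Ccl12, -1.75 for Il6 and -1.54 for Ccl7. Among interferon-stimulated genes it was -2.17 for Cmpk2, -2.14 for Rsad2, -1.92 for Ifit3b, -1.83 for Ifit3, -1.62 for Ifit1 and -1.39 for Isg15. It was -1.0 for Mlkl, -0.71 for Casp8 and -0.56 for Txnip. The adjusted p ran from 2.44e-07 for Aldh1b1 to 0.0382 for Ifit3b (edgeR). Of these 25 genes 14 passed under every alternative tried and 11 did not pass under at least 1. Of the 25, 10 were named for the smallest p-values of this same test, so their calls were fixed by that choice. These 10 are Aldh1b1, Nub1, Ncoa7, Aim2, Gpsm2, Plekha2, Wars, Wdr43, Gna15 and Fez2, and they are among the 14. Of all genes tested 1.16% were called by this test. For Txnip the negative value is a larger decrease under R837 in KO than in WT cells, and for the other 24 genes it is a smaller log2 ratio in KO than in WT cells.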

How the results depend on the processing

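The count of genes differing between R837 and Pam3 in KO cells was 2612, and 1724 (1002 higher and 722 lower) when the 27 KO libraries were fitted alone. Leaving out 1 library gave 1673 to 2617. It stayed within 1.5 times the main count under the other settings, between 2421 and 2949. The count for the genotype difference was 174, and 449 with no filter, 307 with DESeq2 and 96 with only the libraries compared, and leaving out 1 library gave 46 to 310, and the causes of these moves were not tested. The counts of the WT comparison and of both comparisons with untreated cells stayed within 1.5 times under all settings run. Gene lists whose KO count moved by over 1.5 times under another setting include cytokines (7, against 13 with no filter and 11 with DESeq2), interferon regulatory factors (5, and 8 with only the libraries compared), dual-specificity phosphatases (5, and 3 with the 27 KO libraries), unfolded-protein and nuclear receptor genes (4 each, and 2 each with the 27 KO libraries) and complement genes (2, and 4 with no filter). The count of 14 interferon-stimulated genes in the genotype difference (35.9%, against 1.16% of all genes) was 37 with no filter and 3 with only the libraries compared. Higher calls were 50.0% of the KO calls and at most 58.6% under another setting. With 1 library left out the KO ratios ran from -0.03 to 0.17 for Wars and from -0.08 to 0.19 for Gna15, with the sign changed without KO R837 replicate 3. Neither gene passed in KO cells, and the cause was not tested. Of 120 named genes called in KO cells 16 lost the call without at least 1 library and 7 under another setting. At 4 h, the only time checked, same-numbered KO R837 and KO Pam3 libraries correlated by -0.140, 0.420 and -0.0135 in their deviations over 9082 genes, so the numbers as a whole were not taken as pairs. The libraries numbered 2 correlated above every pair of different numbers (-0.394 to 0.293), and were the only ones of 3 to correlate best with their own number. With the replicate block 2859 genes were called in KO cells, 3408 in WT cells and 231 for the genotype difference. Depth limits genes such as Ifnb1, at under 2 CPM in every library compared, and 3 libraries per group limit all tests.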
